A study of Mus musculus with 6 samples.

Results

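The genes described here code for amino acid transporters of the solute carrier (Slc) families 1, 3, 6, 7, 36, 38 and 43. They were taken from the deposited table as all rows of the class of known genes whose symbol is one of these family names followed by the letter a and a number, which gave 44 of the 15803 genes of the table. Another 17 protein-coding mouse genes carry symbols of this form and were not analysed here. The rule reads names and no measured values. It therefore also takes in the Slc6 carriers of creatine, taurine, monoamines and GABA, and 1 carrier of nucleobases in Slc43.

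Growth plate cartilage of mouse embryos at E18.5 (days after conception) gave 6 libraries of polyadenylated RNA, made to compare cartilage with and without Hnrnpk, which codes for an RNA-binding protein. Embryos of the genotype Hnrnpk fl/fl gave the 3 libraries labelled WT, and Col2a1-Cre;Hnrnpk fl/fl littermates gave the 3 labelled CKO. Both genotypes thus carried loxP sites around exons of Hnrnpk. The CKO embryos also carried a Cre recombinase driven by the Col2a1 promoter, which is active in chondrocytes. Cells of the dissected tissue in which this Cre was never active would keep the gene. Male and female embryos were both used, and the labels do not say whether a library held 1 embryo or a pool.

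Amino acids do not cross the cell membrane freely, and each family of carriers moves a set of them by its own mechanism. Heteromeric transporters join a light chain of Slc7, which forms the pore, to a heavy chain of Slc3, which brings the complex to the cell surface. The cationic amino acid transporters (CAT) of Slc7 work without a heavy chain and carry arginine, lysine and ornithine. Slc1 holds sodium-dependent carriers of glutamate, aspartate and small neutral amino acids, Slc38 holds the sodium-coupled neutral amino acid transporters (SNAT), and Slc36 works with protons. Chondrocytes secrete a matrix of collagen, whose chains are rich in glycine and proline, and depend on these carriers for its precursors.

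Values are CPM, reads on a gene per 1000000 reads on all listed genes of the library. Every value was a whole multiple of 1 read, and the libraries held between 1153871 and 1454094 reads, so that 1 read was worth 0.688 to 0.867 CPM. Up to 3 reads in a library counted as the floor, equal to 2.06 to 2.60 CPM. Intervals and floors given below cover counting error only. Hnrnpk itself measured 842, 955, 944 CPM (WT 1 to 3) against 759, 949.9, 780.0 CPM (CKO 1 to 3) (log2 fold change, written log2FC, of -0.14, standard error SE = 0.15, adjusted p by limma = 0.622). Reads of the whole gene therefore did not separate the genotypes, and the direction of each difference below rests on the labels. In CKO 2 the Hnrnpk level lay within the range of WT, and the loss of the floxed exons in that library was not checked here, so results that change without CKO 2 are given both ways. Within genotypes, CKO 2 and WT 3 stood apart. The chi-square of read counts per degree of freedom was 14.2 and 13.1 for CKO 2 against CKO 1 and CKO 3, compared with 1.29 between the latter, and it was 9.43 and 8.65 for WT 3 against WT 1 and WT 2, compared with 2.06 between those.

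The tissue carried the defining genes of cartilage. All 7 chondrocyte markers on the list (among them Col2a1, Acan and Sox9) were detected, with a summed level of 7980 to 12740 CPM in WT and 3870 to 5113 CPM in CKO, and 5 of them fell past the adjusted threshold, an adjusted p under 0.05 by limma over all genes tested. The 5 markers of hypertrophic chondrocytes summed to 1437 to 4574 CPM in WT and to 12380 to 15170 CPM in CKO, with Ihh at the floor in every library and Spp1 as the marker that rose past the threshold. Among the lists of other cells, Cd68 of the macrophage list and Perp of the epidermal list rose past the adjusted threshold. Col1a2 of the osteoblast list fell past it. Krt5, Krt14 and Cdh1 of the epidermal list were not among the genes analysed, and 2 genes of that list were tested. Most osteoblast markers did not follow Col1a2, as 5 of the 7 tested had positive and 2 had negative log2FCs (median 0.46). All 10 macrophage and osteoclast markers tested had positive log2FCs (median 0.80). The macrophage and osteoclast list (11 genes in the table, C1qa and Mrc1 at the floor) summed to 155 to 395 CPM in WT and 299.8 to 315 CPM in CKO, the endothelial list (7 genes, 6 at the floor, Pecam1 and Cdh5 among them) to 15.8 to 24.5 and 31.6 to 60.6 CPM, and the epidermal list (5 genes, Krt1 and Krt15 at the floor) to 26.2 to 52.2 and 132 to 194 CPM. The osteoblast list (8 genes, Dmp1 and Phex at the floor) summed to 828 to 1358 CPM in WT and 505 to 935 CPM in CKO, and the skeletal muscle list (10 genes, Myh3, Myh8 and Actn2 at the floor) to 60.8 to 263 and 101 to 127 CPM. Erythroid genes reached 28.9 CPM in CKO 2 and at most 6.07 CPM elsewhere, and neuronal and glial genes stayed at or under 10.1 CPM. The part of these shifts in the values of the transporters was not tested, and in bulk RNA fewer cells of a type and less RNA per cell cannot be told apart.

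The transporters were measured at very different depths. Summed over all 6 libraries the 44 genes drew 6501 reads, of which Slc3a2 alone took 2171. Of the 44, 20 lay over the floor in all 6 libraries, 10 lay at or under it in every library, and 33 reached the mean of 1 CPM needed for testing. The 11 that were not tested held between 1 and 6 reads in all libraries together. They were Slc6a15, Slc7a8, Slc36a1, Slc6a2, Slc1a2, Slc6a19, Slc38a5, Slc6a13, Slc6a4, Slc6a16 and Slc7a14, which include the noradrenaline (Slc6a2) and serotonin (Slc6a4) transporters of neurons, and at this depth each of them rests on a few reads. Slc6a15, a carrier of branched-chain amino acids and proline, held no read in the WT libraries and 3, 2 and 1 reads in CKO 1, 2 and 3, and Slc7a8, a light chain, held none in WT and 2, 4 and 0 reads in CKO. Fitted with limma without the filter on low values, both met the criterion of log2FC above 1 with an unadjusted p under 0.05, at p of 0.00504 (adjusted p = 0.0799) for Slc6a15 and 0.0425 (adjusted p = 0.257) for Slc7a8. Both were at 0 in every WT library, so limma saw no spread there. DESeq2 on reads gave neither an adjusted p, and its unadjusted p was 0.139 for Slc6a15 and 0.181 for Slc7a8.

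The genes followed an order of level in which the heavy chain stood far ahead. Per kilobase of exon, Slc3a2 reached 81.0 (WT) and 73.4 (CKO) CPM. The lengths were merged over all annotated exons of a gene, and levels per kilobase depend on that choice. Ordered by the mean over all 6 libraries, the arginine and lysine transporter Slc7a3 came next with 30.1 CPM per kilobase in WT and 14.3 in CKO, followed by the glutamine transporter Slc1a5 with 19.6 and 9.73, and the light chain Slc7a6 with 10.5 and 7.80. Within WT alone, Slc6a12 stood above Slc7a6 at 11.6 CPM per kilobase through WT 3, and within CKO alone Slc38a4 stood above it at 7.86. In the WT libraries, levels per kilobase did not overlap between Slc3a2 (73.7 to 91.0), Slc7a3 (28.0 to 31.9) and Slc1a5 (14.6 to 25.9), while Slc7a6 (7.77 to 15.2) reached into the range of Slc1a5. In the CKO libraries Slc1a5 ranged from 3.12 to 21.6 CPM per kilobase and overlapped both of its neighbours in this order. Slc3a2 made up 30.7% of the summed CPM of the 44 genes in WT and 35.97% in CKO.

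The summed level of all 44 genes was 842, 810.5, 1136 CPM (WT 1 to 3) against 598, 1041, 522 CPM (CKO 1 to 3), or 929.6 ± 180 and 720.3 ± 280.2 (SD, n = 3 each). CKO 2 lay within the range of WT and the other CKO libraries lay under it. The cationic transporters were the group whose WT sums differed least relative to their mean, with 161, 173, 167 CPM against 78.4, 113, 72.8 CPM in the CKO libraries, without overlap. The sums of the neutral exchangers of Slc1 were 92.8, 99.1, 137 CPM (WT) against 26.1, 108, 20.8 CPM (CKO), so CKO 2 lay among the WT libraries. The SNAT sums overlapped throughout, with 115, 111, 188 CPM (WT) against 122, 191, 113 CPM (CKO).

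**Figure D1:**
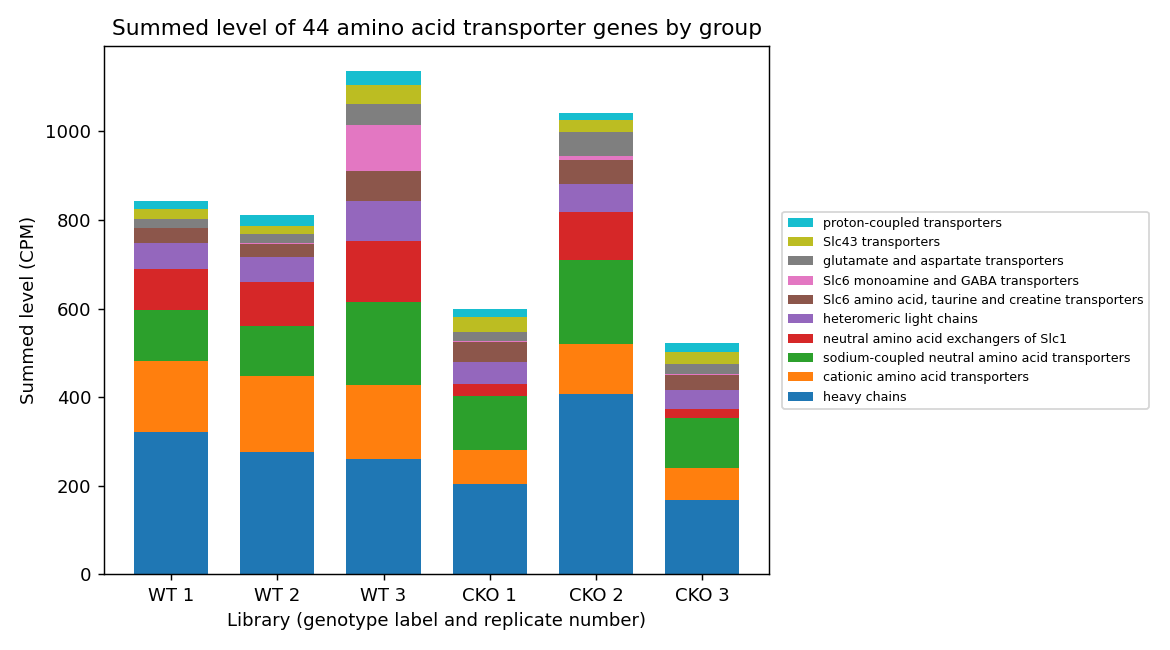
Summed CPM of the 44 transporter genes in each of the 6 libraries (bars, split by group of carriers, from 0). The heavy chain Slc3a2 forms the base of every bar at 167 to 407 CPM, the cationic segment is shorter in the CKO libraries (72.8 to 113 CPM) than in the WT libraries (161 to 173 CPM), and the wide monoamine and GABA segment of 105 CPM occurs in WT 3.

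The 33 genes with enough reads were compared between genotypes with limma on log2(CPM + 1), a scale on which the fold changes of genes with few reads are understated, with p-values adjusted over all 12155 genes tested. Past an adjusted p of 0.05, 3 of the 33 fell (Slc7a3, Slc38a3 and Slc7a2) and 1 rose (Slc6a8). These are 9.09% and 3.03% of the 33 genes, where 2.6% of all genes tested fell and 3.18% rose. The study's own criterion asks for a log2FC beyond 1 in size at an unadjusted p under 0.05. Its methods name no test for the RNA-seq, so these thresholds were applied here to the limma fit. By this criterion 6 genes were lower (18.2%) and 2 were higher (6.06%), compared with 5.1% and 5.3% of all genes. Every CKO library lay below every WT library in 9 genes (27.3%) and above it in 2 (6.06%), against 13.2% and 14.5% of all genes. The shares of lower genes were thus above those of all genes by each of these 3 rules. All 3 rules read the same values, so they are not separate evidence. The number of lower genes by the adjusted p was 0 without WT 2, WT 3 or CKO 3. The shares of higher genes were close to those of all genes by the adjusted p and by the criterion, and below them for genes without overlap. Of the 33 log2FCs 23 were negative and 10 were positive, with a median of -0.36, while the median of all genes tested was 0.013.

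**Figure D2:**
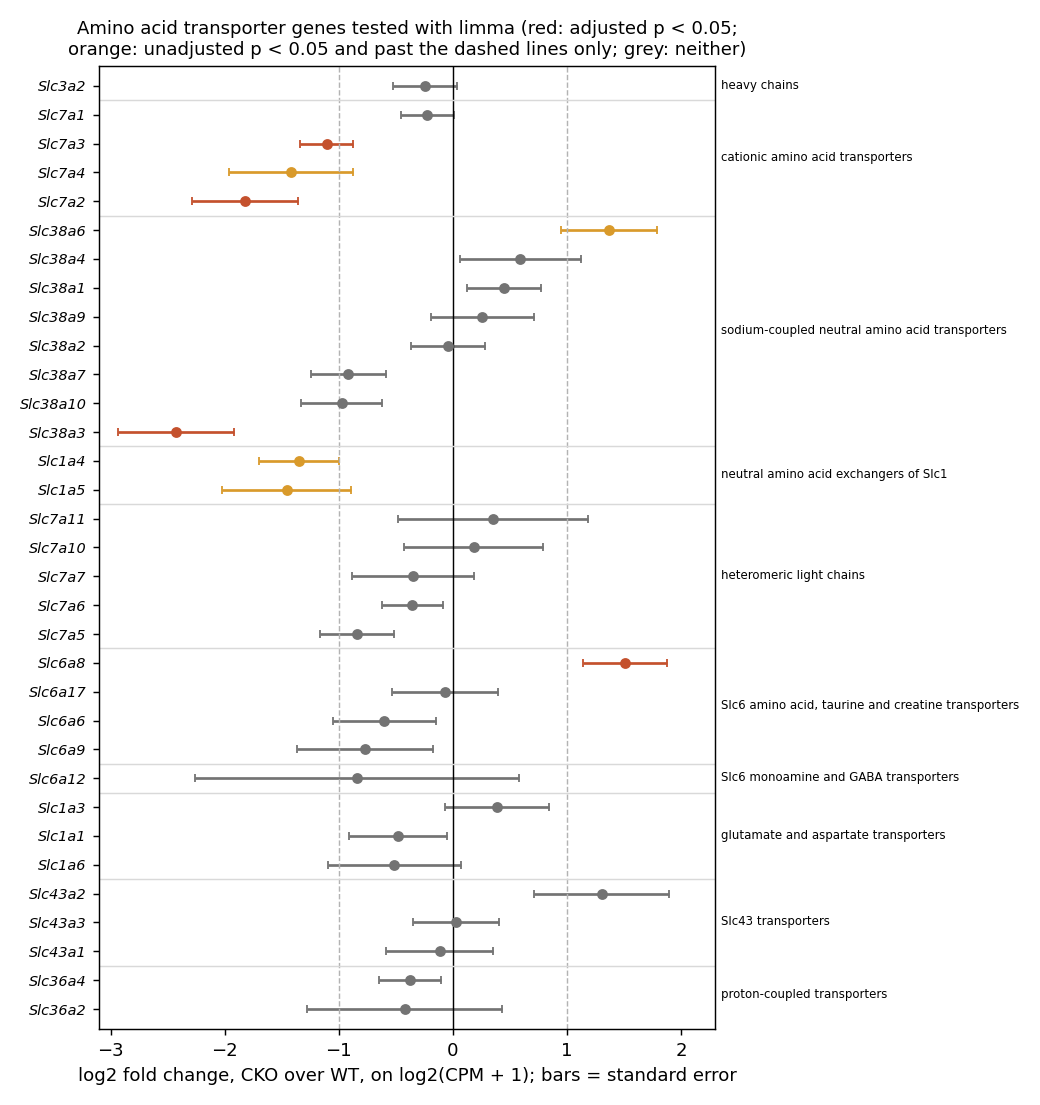
Log2 fold change of CKO over WT on log2(CPM + 1) for the 33 tested transporter genes, grouped by kind of carrier (points, with bars of 1 standard error). Red points passed limma's adjusted p of 0.05 (Slc7a3, Slc7a2 and Slc38a3 to the left, Slc6a8 to the right), orange points passed only the criterion of fold and unadjusted p, and the 4 cationic transporters all lie left of 0.

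The cationic amino acid transporters were the group with the most genes that fell past the adjusted threshold. Of 4 tested, all had negative log2FCs (median -1.26), 2 fell past the adjusted threshold, and 3 had values that did not overlap between genotypes. One of these 3, Slc7a4, rested on 14 reads in WT and 3 in CKO. Slc7a3 alone held 114 of the group's mean of 167 CPM in WT and 54.0 of 87.9 CPM in CKO. Slc7a3 (ENSMUSG00000031297, minus strand of chromosome X from 101079210 to 101086020 of GRCm38) codes for CAT-3 and ranked behind Slc3a2 alone in level per kilobase. It held 146, 153 and 143 reads in WT 1, 2 and 3 and 63, 103 and 51 reads in CKO 1, 2 and 3. In CPM these were 106, 115 and 121 against 43.3, 74.3 and 44.2, with means of 114 ± 7.54 and 54.0 ± 17.7 (SD, n = 3). The WT libraries lay close together and above every CKO library, of which CKO 2 was the highest. Slc7a3 was at 0.474 times the WT level, with log2FC at -1.11 (SE = 0.23, adjusted p by limma = 0.0222). Without CKO 2, limma's adjusted p was 8.77e-04, and without any other single library it lay between 0.0553 (WT 3) and 0.101 (CKO 3), at log2FC of -1.16 to -0.97. An exact permutation test of 3 libraries against 3 cannot give a two-sided p under 0.1, which is what it gave for each gene without overlap.

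Slc7a2 (ENSMUSG00000031596, plus strand of chromosome 8 from 40862396 to 40922308) codes for CAT-2, which supplies arginine to macrophages and other cells. Its reads were 24, 27 and 13 in WT and 12, 3 and 3 in CKO, so CKO 1 came within 1 read of WT 3. Mean levels were 16.2 ± 4.75 (WT) and 4.34 ± 3.40 (CKO) CPM (log2FC -1.82, SE = 0.46, adjusted p by limma = 0.0475). The adjusted p by limma was 0.0290 without CKO 1 and between 0.0556 (without WT 3) and 0.184 (without WT 2) when another library was left out. An annotated gene on the other strand, Gm26584, overlaps exons of Slc7a2. Slc7a4, a CAT-related protein, was lower by the criterion of fold and unadjusted p but rested on 14 reads in WT and 3 in CKO. It had 4, 3 and 7 reads in WT and 1, 0 and 2 in CKO, a ratio of WT to CKO of 4.78 with an exact 95% counting interval of 1.33 to 26.0, and log2FC -1.42 (adjusted p by limma = 0.166). Without WT 3, CKO 1 or CKO 2 it no longer met the criterion, with unadjusted p by limma of 0.0527 to 0.104. P2rx6 overlaps it on the other strand. Slc7a1, which codes for the widely expressed CAT-1, held 48, 47 and 35 reads in WT and 38, 49 and 28 in CKO, so the genotypes overlapped (33.2 ± 3.16 and 28.6 ± 5.94 CPM, log2FC -0.22, SE = 0.24, adjusted p by limma = 0.634).

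**Figure D3:**
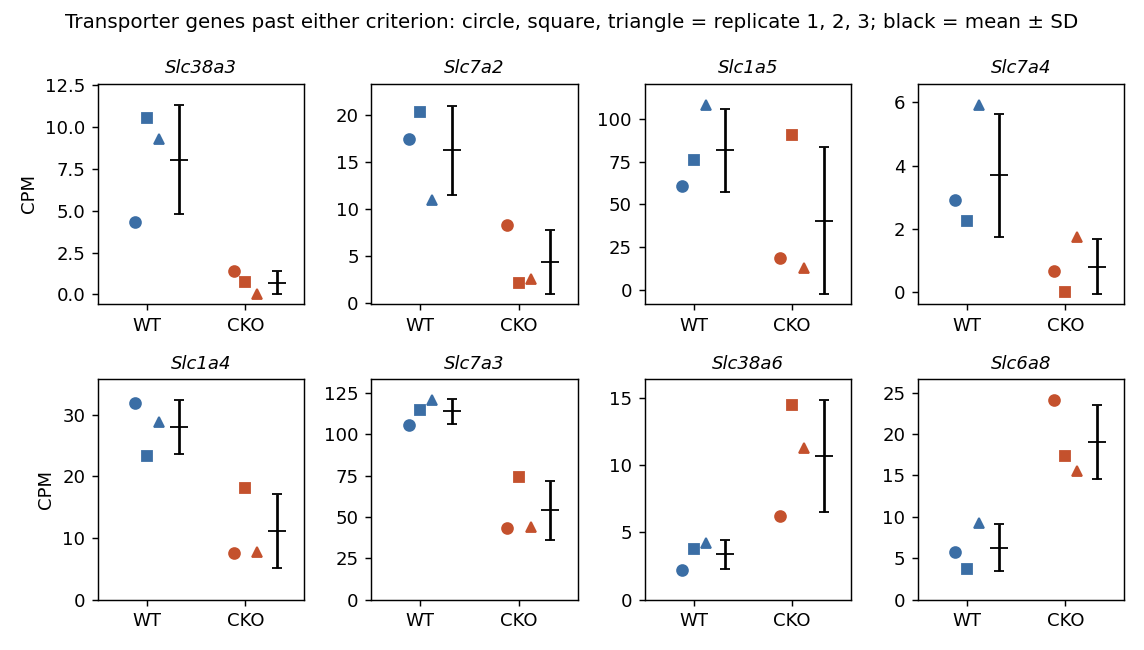
CPM of the 8 transporter genes past the adjusted threshold or the criterion of fold and unadjusted p (symbols for replicates 1 to 3 of WT in blue and CKO in red, black bars for mean ± SD, n = 3, each panel with its own linear axis). Slc7a3 shows WT values close together (106 to 121 CPM), Slc1a5 shows CKO 2 at 90.2 CPM beside 18.6 and 13.0 CPM in the other CKO libraries, and Slc6a8 and Slc38a6 lie higher in CKO.

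Both neutral amino acid exchangers of Slc1 were lower by the criterion of fold and unadjusted p, and neither passed the adjusted threshold. Slc1a4 (ENSMUSG00000020142, minus strand of chromosome 11 from 20302180 to 20332713) codes for ASCT1, which exchanges serine, alanine and cysteine. It held 44, 31 and 34 reads in WT and 11, 25 and 9 in CKO, or 28.0 ± 4.36 and 11.1 ± 5.98 CPM. The genotypes did not overlap, with CKO 2 nearest to WT, and log2FC stood at -1.35 (SE = 0.35, adjusted p by limma = 0.0509). Slc1a5 (ENSMUSG00000001918, chromosome 7 from 16781340 to 16798274) codes for ASCT2, a main entry route of glutamine. Its reads were 84, 101 and 128 in WT and 27, 125 and 15 in CKO, or 60.9, 75.8 and 108 CPM against 18.6, 90.2 and 13.0 CPM. CKO 1 and CKO 3 lay under every WT library and CKO 2 lay among them, giving log2FC -1.46 (SE = 0.57, adjusted p by limma = 0.172). Slc1a5 missed the criterion without WT 2, WT 3, CKO 1 or CKO 3, with unadjusted p by limma of 0.0617 to 0.121 (log2FC -1.49 to -0.93). It also missed the criterion in the fits of reads by edgeR (log2FC -1.02, adjusted p = 0.321) and DESeq2 (log2FC -1.03, adjusted p = 0.588), where the unadjusted p was above 0.05. Without CKO 2, log2FC was -2.28 for Slc1a5 (adjusted p by limma = 7.84e-04) and -1.73 for Slc1a4 (adjusted p by limma = 0.00396).

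The promoter of Slc1a4 is shown because it holds the letters TGATGNAA, the core of an amino acid response element, a motif bound by ATF4 with C/EBP partners when amino acids are short. The cystine and glutamate exchanger gene Slc7a11, known as a target of this response, is shown beside it. Both are RefSeq sequences of GRCm38.p6 on the minus strand, 100 bases before to 8 bases after the start of the gene, with matches on either strand in capitals.
Slc1a4 (chr11:20332706-20332813): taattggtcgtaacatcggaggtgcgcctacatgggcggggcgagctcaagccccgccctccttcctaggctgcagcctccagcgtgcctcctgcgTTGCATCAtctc
Slc7a11 (chr3:50443606-50443713): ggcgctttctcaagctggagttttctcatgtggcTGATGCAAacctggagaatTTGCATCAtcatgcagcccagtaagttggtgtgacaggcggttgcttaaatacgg
In Slc1a4 the match runs from base -4 to base 4 around the start, and in Slc7a11 there are matches from -66 to -59 and from -47 to -40. RefSeq promoters of 300 bases (250 before and 50 after the start) were found for 31 of the 44 genes, 49 promoters in all, and 4 of these (8.16%) held the letters on either strand, from Slc1a4, Slc7a11 and Slc7a7, the last with a pair of overlapping windows. Among all 32851 RefSeq promoters, 3.97% held them. The motif was chosen after the values were seen, and a match describes letters and is not a measured site. Slc7a11 itself held only 0, 3 and 4 reads in WT and 3, 12 and 0 in CKO (log2FC 0.35, SE = 0.83, adjusted p by limma = 0.852), and Slc7a7, the light chain of the lysine and leucine exchanger y+LAT1, held 11, 2 and 4 reads in WT and 4, 5 and 2 in CKO.

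The heavy chain Slc3a2 (ENSMUSG00000010095, minus strand of chromosome 19 from 8706882 to 8723369), also named CD98, had the highest level per kilobase of the 44 genes. It held 443, 368 and 308 reads in WT and 295, 564 and 193 in CKO, or 321, 276 and 260.2 CPM against 203, 407 and 167 CPM. CKO 1 and CKO 3 lay under every WT library, and CKO 2 lay above every one. Log2FC was -0.25 (SE = 0.28, adjusted p by limma = 0.670) with all libraries and -0.63 (SE = 0.15, adjusted p by limma = 0.0267) without CKO 2. The other heavy chain, Slc3a1, was not analysed here.

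None of the 5 light chains tested passed the adjusted threshold of limma, and 1 (Slc7a5) had an unadjusted p under 0.05 by it. Slc7a5 and Slc7a6, the 2 light chains with an adjusted p by edgeR and DESeq2, passed neither. Slc7a6, which codes for y+LAT2, an exchanger of cationic for neutral amino acids, was the light chain with the highest level per kilobase, with 49, 52 and 82 reads in WT and 54, 51 and 38 in CKO (47.9 ± 18.6 and 35.6 ± 2.34 CPM, log2FC -0.36, SE = 0.27, adjusted p by limma = 0.485). WT 3 was high and the remaining libraries lay within 32.9 to 39.0 CPM. Slc7a5, which codes for LAT1, the carrier of leucine and other large neutral amino acids, held 20, 19 and 14 reads in WT and 9, 13 and 7 in CKO. Its genotypes did not overlap (log2FC -0.84, adjusted p by limma = 0.164). The level of the heavy chain per kilobase was 6.46, 5.86 and 3.48 times the sum of 6 light chains in WT 1, 2 and 3 and 4.91, 8.73 and 4.65 times that sum in CKO 1, 2 and 3, with WT 3 lowest and CKO 2 highest and the genotypes overlapping. The size of this ratio depends on the merged exon lengths used.

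The SNAT genes had log2FCs of both signs. Of 8 tested, 4 had positive and 4 had negative log2FCs (median 0.11), 1 fell past the adjusted threshold and 1 was higher by the criterion of fold and unadjusted p. Slc38a3 (ENSMUSG00000010064, minus strand of chromosome 9 from 107650634 to 107669530) codes for SNAT3, which moves glutamine, histidine and asparagine in exchange for protons. It held 6, 14 and 11 reads in WT and 2, 1 and 0 in CKO, so each CKO library lay at the floor and each WT library above it. By reads per library total the WT level was 10.6 times the CKO level, with an exact 95% counting interval of 3.30 to 54.1. Log2FC was -2.43 (SE = 0.51, adjusted p by limma = 0.0234). The adjusted p by limma was 0.115 without WT 2, 0.0663 without WT 3 and 0.0877 without CKO 3, and it stayed under 0.05 without each of the other libraries.

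Slc38a6 codes for SNAT6, a member of this family whose substrates are less well known. It held 3, 5 and 5 reads in WT and 9, 20 and 13 in CKO (3.38 ± 1.07 and 10.6 ± 4.16 CPM), without overlap and with CKO 2 the highest (log2FC 1.37, SE = 0.42, adjusted p by limma = 0.0881). Of the transporter genes searched for this, it was the one that shared a near-identical stretch with other genes. Transcripts of 35 other genes shared at least 90% of bases with it over at least 300 bases, and its reads are uncertain for that reason. The neighbouring genes Slc38a1, Slc38a2 and Slc38a4 lie on chromosome 15, 44.5 kb and 295 kb apart, and are named for their high CPM. Each of them overlapped between genotypes.

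Slc38a2, which codes for SNAT2, a carrier known to be induced when amino acids are short, held 62, 37 and 91 reads in WT and 61, 67 and 50 in CKO (49.9 ± 24.9 and 44.6 ± 3.37 CPM, log2FC -0.044, SE = 0.32, adjusted p by limma = 0.957). Slc38a1, for the glutamine carrier SNAT1, held 30, 24 and 27 reads in WT and 36, 66 and 23 in CKO (log2FC 0.45, SE = 0.32, adjusted p by limma = 0.464). Slc38a4, for SNAT4, held 17, 17 and 50 reads in WT and 36, 82 and 19 in CKO (log2FC 0.59, SE = 0.53, adjusted p by limma = 0.570). In Slc38a4 the high libraries were WT 3 and CKO 2, the same that stood apart over all genes. Slc38a7, a carrier of glutamine out of lysosomes, and Slc38a10 were lower in every CKO library, with 17, 15 and 12 against 7, 9 and 6 reads and 16, 20 and 20 against 13, 11 and 5 reads. Their log2FCs of -0.92 (adjusted p by limma = 0.136) and -0.98 (adjusted p by limma = 0.143) did not pass the adjusted threshold. Slc38a9, which reports lysosomal arginine to mTORC1, overlapped between genotypes with 8, 16 and 5 reads against 13, 7 and 14 (log2FC 0.26).

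**Figure D4:**
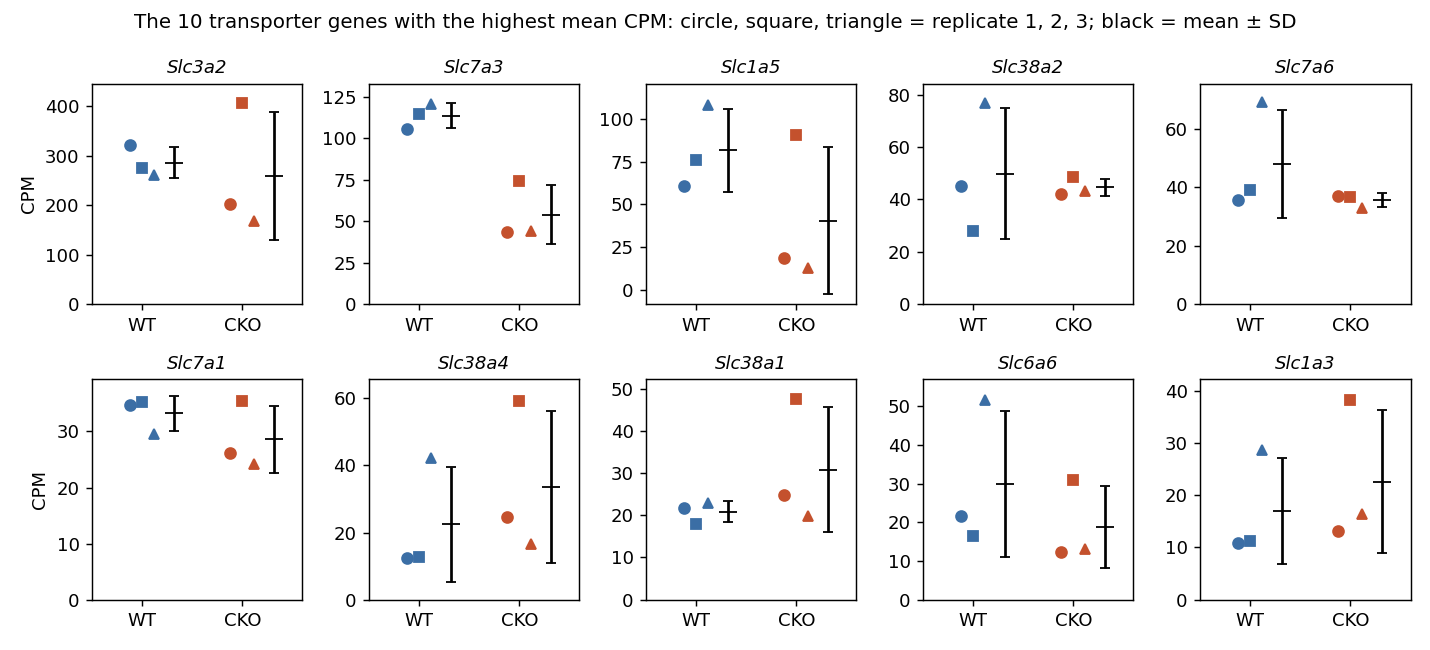
CPM of the 10 transporter genes with the highest mean over the 6 libraries (symbols for replicates 1 to 3 of WT in blue and CKO in red, black bars for mean ± SD, n = 3, each panel with its own linear axis). In Slc7a3 the genotypes do not overlap, while in the other 9 genes they do. The square of CKO 2 is the highest CKO value in 9 of the 10 panels and the triangle of WT 3 is high in Slc38a2, Slc7a6, Slc38a4, Slc6a6 and Slc1a3.

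Slc6a8 (ENSMUSG00000019558, plus strand of chromosome X from 73673150 to 73682502) was the single gene of the 44 that rose past the adjusted threshold, and its substrate is creatine, the precursor of the phosphocreatine store of energy. It held 8, 5 and 11 reads in WT and 35, 24 and 18 in CKO, or 5.80, 3.75 and 9.29 CPM against 24.1, 17.3 and 15.6 CPM. Every CKO library lay above every WT library, and CKO 2 lay between the other CKO libraries. The CKO mean was 3.03 times the WT mean (6.28 ± 2.80 and 19.0 ± 4.48 CPM), with log2FC at 1.51 (SE = 0.37, adjusted p by limma = 0.0413). The adjusted p by limma was 0.0272 without WT 3 and 0.0384 without CKO 2, and it was 0.133, 0.143, 0.159 and 0.104 without WT 1, WT 2, CKO 1 and CKO 3.

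The other 4 Slc6 genes tested did not pass the adjusted threshold of limma, and none had an unadjusted p under 0.05 by it. Of these, Slc6a6 was the one that edgeR fitted and that DESeq2 gave an adjusted p, and it passed neither. Slc6a6, the taurine transporter, held 30, 22 and 61 reads in WT and 18, 43 and 15 in CKO (29.9 ± 18.9 and 18.8 ± 10.6 CPM, log2FC -0.60, SE = 0.45, adjusted p by limma = 0.489), again with WT 3 and CKO 2 as the high libraries. Gm44981 overlaps it on the other strand. Slc6a9, the glycine transporter GlyT1, which takes up the most frequent residue of collagen, held 11 reads over the WT libraries and 7 over the CKO libraries (log2FC -0.77). Slc6a12, the carrier of betaine and GABA that accumulates betaine as an osmolyte, was singled out after its values were seen. It held 0, 2 and 124 reads in WT and 2, 13 and 1 in CKO, so WT 3 alone held most of its reads. Log2FC was -0.84 (SE = 1.42, adjusted p by limma = 0.779) with all libraries and 1.18 without WT 3.

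In the remaining groups (glutamate and aspartate carriers, Slc36 and Slc43) none of the 8 genes tested passed the adjusted threshold of limma or had an unadjusted p under 0.05 by it. The same held for the 4 of them that edgeR fitted and, for the adjusted p, the 5 that had one by DESeq2. Slc1a3, a carrier of glutamate and aspartate known as GLAST, held 15, 15 and 34 reads in WT and 19, 53 and 19 in CKO (17.0 ± 10.2 and 22.6 ± 13.7 CPM, log2FC 0.39, SE = 0.46, adjusted p by limma = 0.681). Slc1a1, the carrier of glutamate and cysteine named EAAC1, held 12, 11 and 18 reads against 9, 18 and 5 (log2FC -0.48). Slc43a2, which codes for LAT4, a carrier of large neutral amino acids, held 3, 2 and 0 reads in WT and 9, 7 and 2 in CKO, and CKO 3 overlapped with WT (log2FC 1.30, adjusted p by limma = 0.236). Slc43a3, a carrier of nucleobases, had means of 20.3 (WT) and 19.1 (CKO) CPM (log2FC 0.025). Slc36a4, a carrier of proline and tryptophan in the proton-coupled family, held 22, 25 and 21 reads in WT and 17, 21 and 15 in CKO, and its log2FC of -0.38 (adjusted p by limma = 0.460) was the smallest among the 9 lower genes whose genotypes did not overlap. The tested genes not yet given a fold change, Slc1a6, Slc6a17, Slc7a7, Slc7a10, Slc36a2 and Slc43a1, had log2FCs between -0.51 and 0.18.

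The highest WT value was in WT 3 for 21 of the 33 tested genes, and the highest CKO value was in CKO 2 for 19 of them. Over all genes tested these libraries held the highest value of their genotype in 41.4% and 41.2% of genes. With CKO 2 left out, 5 transporter genes fell past the adjusted threshold (Slc1a5, Slc38a3, Slc3a2, Slc1a4 and Slc7a3), where 3 did with all libraries. Slc7a2 no longer passed without CKO 2 (adjusted p by limma = 0.0595). CKO 2 stood apart over all genes, and the share of all genes that fell in this fit was not counted here. Slc7a3 passed the adjusted threshold in 8 of 13 alternative analyses with limma, edgeR or DESeq2, and over all 13 its log2FC ranged from -1.36 to -0.97.

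Genes around the transporters were described from 3 lists. Of 13 tested genes for amino acid carriers of other families (such as the mitochondrial carriers of Slc25), none passed the adjusted threshold of limma and 1 had an unadjusted p under 0.05 (median log2FC -0.30). The edgeR and DESeq2 fits on reads each gave 8 of them an adjusted p, and none passed (1 and 0 with an unadjusted p under 0.05). There were 33 tested genes for the sensing of amino acids by mTORC1, the kinase complex that couples nutrients to growth. Of these, 19 had positive and 14 had negative log2FCs (median 0.074), and 1 fell past the adjusted threshold. That number lies near the share of all genes tested that fell (2.6%). The gene was Sesn3, a member of the sestrin family of mTORC1 inhibitors (log2FC -2.27, adjusted p by limma = 0.0355). It measured 9.42, 9.005, 6.76 CPM (WT) against 0, 2.89, 0.867 CPM (CKO). Without 1 library the adjusted p of Sesn3 by limma ranged from 0.00622 to 0.141 and was under 0.05 only without CKO 2. It was not fitted by edgeR, and DESeq2 gave it no adjusted p (unadjusted p = 0.00602). Of the 21 genes of this list with an adjusted p by edgeR and the 24 by DESeq2, none passed. An unadjusted p under 0.05 was given to 3 of the 21 by edgeR and to 2 of all 33 by DESeq2, Sesn3 being 1 of the 2.

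The list for the amino acid deprivation response held Atf4 itself and the kinase genes Eif2ak1, Eif2ak3 and Eif2ak4. It also held genes known from the response that ATF4 drives when amino acids run short, with enzymes of amino acid synthesis among them. Of 27 genes tested, 10 fell and 1 rose past the adjusted threshold (median log2FC -0.24), where 2.6% of all genes fell and 3.18% rose. The list was chosen with earlier results of these data known. It summed to 4913 to 5067 CPM in WT and 3260 to 3701 CPM in CKO. Of the 27 log2FCs, 21 were negative and 6 were positive. Asns (log2FC -0.24, adjusted p by limma = 0.402), Ddit3 (-0.13, 0.835) and Psat1 (0.38, 0.41), named after their values were seen, passed in neither direction. Pycr1, the last enzyme of proline synthesis, measured 245, 244.6, 295 CPM (WT) against 37.8, 44.03, 36.4 CPM (CKO) (log2FC -2.70, SE = 0.17, adjusted p by limma = 6.7e-05). CKO 2 lay with the other CKO libraries, unlike its place in Slc1a5 and Slc3a2. Fgf21, a secreted factor of this response, went from 51.5 ± 18.9 to 10.1 ± 2.03 CPM (SD, n = 3) (log2FC -2.18, adjusted p by limma = 0.00505).

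Gpt2, the mitochondrial alanine transaminase, fell (log2FC -2.04, adjusted p by limma = 0.0259), Trib3, a pseudokinase that restrains ATF4, fell as well (log2FC -1.60, adjusted p by limma = 0.00373), as did Cth, which releases cysteine from cystathionine (log2FC -1.38, adjusted p by limma = 0.00718). The gene that rose was Gdf15, a stress cytokine, from 32.0 ± 10.2 to 67.3 ± 10.5 CPM (log2FC 1.09, adjusted p by limma = 0.0426). Atf4 itself, chosen after its values were seen, measured 606, 648, 622 CPM (WT) against 512, 649, 509.6 CPM (CKO) (log2FC -0.18, adjusted p by limma = 0.548), with CKO 2 at the level of WT. Pycr1, Fgf21, Trib3 and Cth stayed under an adjusted p of 0.05 by limma without each single library, Gpt2 did so without CKO 2 (0.0524 to 0.0866 without another), and Gdf15 without 2 of the 6. The number of lower genes on this list was 4 without WT 1 or without WT 2, and between 6 and 10 in the other alternatives.

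**Figure D5:**
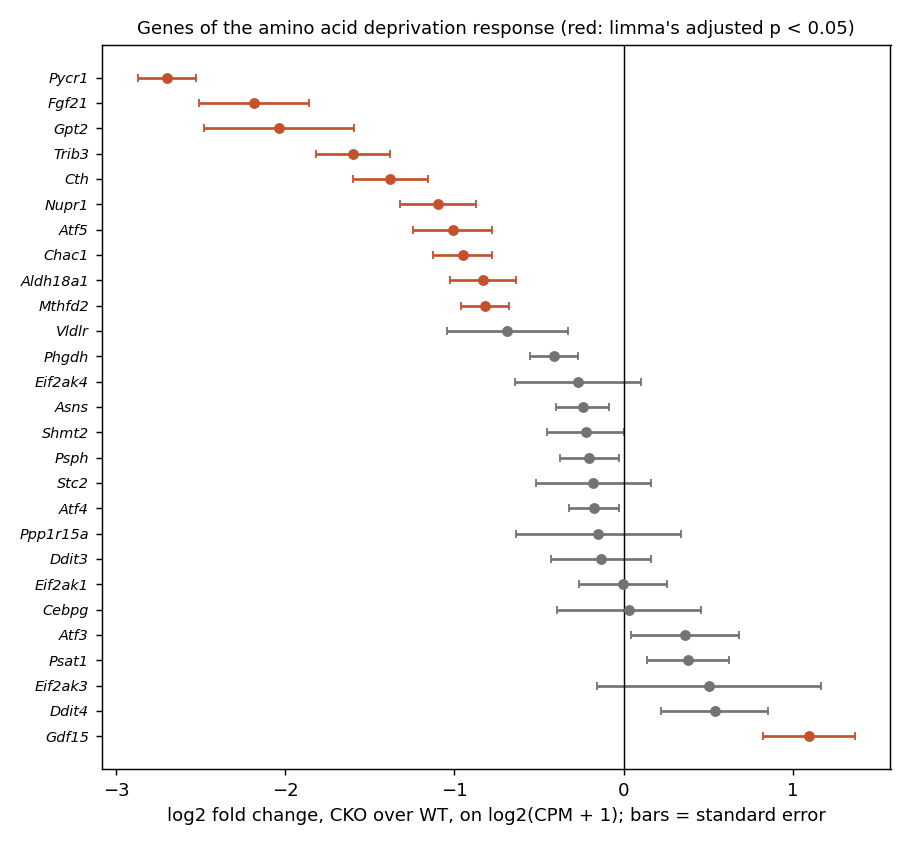
Log2 fold change of CKO over WT on log2(CPM + 1) for the 27 tested genes of the amino acid deprivation response (points, with bars of 1 standard error), ordered by value. Red points passed limma's adjusted p of 0.05, with 10 genes to the left of 0, Pycr1 farthest, and Gdf15 alone to the right.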

How the data were processed

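Per the labels, total RNA was isolated with TRIzol and a stranded kit for mRNA was used. The submitters' processing notes name cutadapt 2.5, HISAT2 and featureCounts 1.6.3, and the genome build is not given in the sources used here. The authors deposited CPM for each of 15803 genes in each of 6 libraries, 3 labelled WT and 3 labelled CKO. All values were whole multiples of 1 read within 0.001 reads, from which reads were recovered, and the count tests were run on these. The depth, 1153871 to 1454094 reads in a library, is low, and counting error limits genes with few reads. The design foresaw limma for CPM. Genotypes were compared with limma 3.58.1 (R 4.3.3) on log2(CPM + 1), without covariates, after dropping genes whose mean was under 1 CPM. Variances were moderated with a trend, and p-values of the remaining 12155 genes were adjusted by Benjamini-Hochberg. Since nothing says that the libraries of a genotype came from separate embryos, p-values measure the spread between these libraries, which may be technical.

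Coordinates and merged exon lengths came from GENCODE M21 (GRCm38), in which all 44 genes and 15212 of 15217 Ensembl identifiers were found. Other genes that shared a near-identical stretch were counted with blastn 2.17.0 at 90% identity over 300 bases. This was done for the 16 transporter genes named by rule and for Slc6a12. Alternatives were a pseudocount of 0.1, no filter, a minimum mean of 5 CPM, TMM factors (0.970 to 1.02), the replicate number as a block, omission of single libraries, edgeR 4.0.16 (quasi-likelihood) and DESeq2 1.42.0 on reads. The fits were tested on simulated counts. Named with values are genes with an adjusted p under 0.05, genes past a log2 fold change of 1 or -1 with an unadjusted p under 0.05, the 10 with the largest mean CPM and the heavy chains, and from each other list at most the 5 largest log2 fold changes in each direction past the adjusted threshold. Other genes are counted or given with their reads. The genes and lists were chosen with earlier results of these data known. Protein sequences were not used here.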

Additional observations from a re-analysis of the deposited data

How the results depend on the processing

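With all libraries, 3 transporter genes were lower and 1 was higher past the adjusted threshold. The number of lower genes was 1 with a pseudocount of 0.1, 1 with DESeq2 and 1 with the replicate block, and 0 to 5 when each library was left out in turn (0 without WT 2, WT 3 or CKO 3, where 6 had an unadjusted p under 0.05 by limma each time, 1 without WT 1, 2 without CKO 1 and 5 without CKO 2). The number of higher genes was 0 with DESeq2, 0 with the replicate block and 0 to 1 when each library was left out (1 without WT 3 or CKO 2). By fold and unadjusted p, 6 genes were lower with all libraries, and 4 to 9 were lower in the alternatives (9 without CKO 2). By the same rule, 2 genes were higher with all libraries, against 5 with no filter on low values, where 44 genes were tested, and 1 with edgeR, where 20 were tested. The shares of all genes called in these alternatives were not counted here. The cause of the other differences was not tested. The correlations of deviations for libraries of the same number were 0.038, -0.13 and -0.10, so no pairing by replicate number was seen. With 3 libraries per genotype these values cannot tell whether libraries of the same number came from littermates. Of the 16 genes named by rule, 3 changed sign, none of which was called with all libraries: Slc1a3 (-0.056 without CKO 2, up to 0.82 without WT 3), Slc38a2 (0.32 without WT 3, down to -0.40 without WT 2) and Slc3a2 (0.014 without CKO 3, down to -0.63 without CKO 2). Of the other values of single genes, 169 kept their direction and side of the threshold, 26 no longer passed it and 5 newly did. In these counts a missing adjusted p by DESeq2 (Slc38a3 and Slc7a4) was taken as not passing. Slc7a3 passed in 8, Slc6a8 in 7, Slc7a2 in 4 and Slc1a4 in 3 of 13 alternatives. Slc38a3 passed in 5 of 11, where the 11 include the DESeq2 fit without an adjusted p (unadjusted p = 0.0028). Depth limits the 11 genes with 1 to 6 reads, 2 of which (Slc6a15 and Slc7a8) are among the 5 higher without the filter, and DESeq2 gave an adjusted p to 22 of the 44 genes.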
